A study of Homo sapiens with 15 samples.

Results

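T47D is an established luminal breast cancer line that carries the oestrogen receptor (ER). This comparison set tamoxifen-resistant T47D cells held on their maintenance drug, 4-hydroxytamoxifen (4-OHT), against parental T47D cells given vehicle. It used 6 of the 15 RNA-sequencing libraries of the study, chosen by the labels alone: 3 of resistant cells on 4-OHT and 3 of parental cells on vehicle. The series title places the resistant line in a study of how inhibiting fibroblast growth factor receptors affects endocrine resistance. Per the labels' protocols, parental cells were grown in RPMI 1640 medium with 5% serum and 8 µg/mL insulin. The resistant line was grown with insulin in 2% charcoal-stripped serum, from which steroids are removed, and 1 µM 4-OHT. Both lines were then seeded for 24 h and kept for 48 h in phenol red-free medium with 2% charcoal-stripped serum. For the next 120 h the parental cells received 0.05% DMSO and the resistant cells 1 µM 4-OHT. The resistant line is 1 line, so the drug, the selected state and the growth history cannot be told apart in this comparison. The labels call the libraries biological replicates without saying how they were made. The p-values set a group difference against the scatter within groups, estimated over all 15 libraries, and that scatter may be technical. Besides the groups compared, those 15 hold resistant cells on vehicle, on 5 µM of the drug erdafitinib, and on 5 µM erdafitinib with 1 µM 4-OHT. These groups therefore also set the scatter and the filter on low counts.

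Tamoxifen is a selective modulator of the ER, and 4-OHT is an active metabolite that binds the receptor in place of oestradiol. In breast epithelium the drug-bound receptor recruits corepressors at many target genes, and oestrogen-driven transcription and proliferation fall. Tamoxifen also binds a microsomal site made up of the sterol enzymes EBP and DHCR7, and it is handled by enzymes and transporters of drug metabolism. Cells that grow on in the drug are the usual laboratory model of acquired endocrine resistance.

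The parental libraries held 13150009, 6946684 and 24958954 counts, and the resistant libraries 28147510, 8990899 and 21360714, each for replicates 1 to 3 in that order. Values for libraries are given in this order throughout, as CPM, which are counts scaled to TMM-adjusted library totals. Depending on the library, 3 counts of a gene equalled 0.107 to 0.432 CPM. Mitochondrial genes took 14.5 to 25.7% of counts. Libraries differed along the GC content of transcripts: in the fifth of genes richest in GC (median GC content 61.5%), parental replicate 3 lay 0.708 above and parental replicate 2 lay 0.468 below the average on the log2 scale.

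Of 16210 genes tested, 5726 (35.3%) differed at an adjusted p under 0.05. There were 3105 genes higher in the resistant cells on 4-OHT (19.2% of those tested) and 2621 lower (16.2%), and 3815 of the called genes differed by at least 2-fold. The groups of 3 did not overlap for 7152 genes (44.1%). The median log2 fold change over all tested genes was 0.02, and the lists below are read against these shares. Calls come from edgeR's quasi-likelihood F test on all 15 libraries with Benjamini-Hochberg adjustment, and SE is its standard error on the log2 scale. After a correction for GC content and length, 42.6% of the calls were higher against 54.2% before it, and the median over all genes was -0.134, so small differences in either direction depend on that choice. Genes were named by a rule given with the processing, and others named here were chosen after their values were seen.

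The largest rises were in genes that were at or near 0 in the parental cells. CLEC3A, which encodes a C-type lectin of cartilage (ENSG00000166509, chromosome 16, 78022515 to 78066761), stood at 0.252, 0.477 and 0.146 CPM in the parental libraries and 2115, 2254 and 2342 CPM in the resistant libraries. All 3 resistant libraries lay far above all 3 parental ones, with a difference of 13.23 (SE 0.30, adjusted p = 2.04e-12) on the log2 scale. GNAT3, the gene of the taste G protein gustducin, had 3 counts in all parental libraries together and 483, 552 and 558 CPM in the resistant ones, a ratio of 7920 (95% counting interval 2710 to 38400). SPARC, a matrix glycoprotein gene, likewise had 3 parental counts against 239.9, 199 and 180.1 CPM, a ratio of 3230 (95% counting interval 1110 to 15700). TNC, which encodes tenascin C of the extracellular matrix, had 1 parental count against 159.7, 126 and 114 CPM, a ratio of 6310 (95% counting interval 1130 to 249000). In each of these 4 genes the resistant libraries lay close together compared with their distance from the parental ones. Another 6 of the 10 largest rises had no parental counts, so their folds are lower bounds set by 3 counts over the group. MPPED1, a metallophosphoesterase gene, was at least 527-fold higher, and SLIT3, which encodes an axon guidance ligand, at least 339-fold. IGSF21, an immunoglobulin superfamily adhesion gene, was at least 268-fold higher and CCL2, a chemokine gene that attracts monocytes, at least 205-fold. MMRN1, the multimerin 1 gene, was at least 190-fold higher. HPGD, whose enzyme inactivates prostaglandins, was at least 166-fold higher.

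The largest falls mixed cancer-testis antigens, growth signalling genes and secreted products. CSAG1, a cancer-testis antigen gene on chromosome X, had 26.4, 28.1 and 34.9 CPM in the parental libraries and 1 count in all resistant ones, a ratio of 1880 (95% counting interval 337 to 74200) in the other direction. MAGEA3 had 2 resistant counts against 21.6, 15.7 and 36.97 CPM, a ratio of 888 (95% counting interval 245 to 7340). MAGEA6, its neighbour, fell by 8.46 (SE 0.73, adjusted p = 7.92e-07). MAGEA3 and MAGEA6 are near-identical copies, and reads that fit both were left out of the counts, so the level of each is uncertain. CSAG1, MAGEA3 and MAGEA6 lie in 1 stretch of chromosome X, so these 3 of the 10 largest falls are neighbours. FOS, which encodes a subunit of the transcription factor AP-1, stood at 80.7, 59.6 and 113 CPM in the parental libraries and 0.653, 0 and 0.0465 CPM in the resistant libraries, a difference of -8.09 (SE 0.68, adjusted p = 6.20e-07). AREG, the gene of the EGF receptor ligand amphiregulin, stood at 21.3, 29.1 and 20.2 CPM in the parental libraries and 0.206, 0 and 0.279 CPM in the resistant libraries, a difference of -6.88 (SE 0.73, adjusted p = 5.91e-06). The FOS and AREG groups did not overlap, which the naming rule required, and every resistant FOS value was far under the lowest parental library. GFRA1, which encodes the co-receptor for GDNF at the receptor RET, fell by 7.13 (SE 0.39, adjusted p = 7.18e-09). KCNK5, a background potassium channel gene, fell by 8.46, and KCTD6, a ubiquitin ligase adaptor gene, by 6.69 on the log2 scale. DSCAM, a cell adhesion gene, fell by 6.68 (SE 0.55, adjusted p = 4.36e-07). CRISP3, which encodes a secreted cysteine-rich protein, fell from 2334, 2470.5 and 1359 CPM to 17.9, 31.7 and 21.5 CPM, by 6.45.

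**Figure D1:**
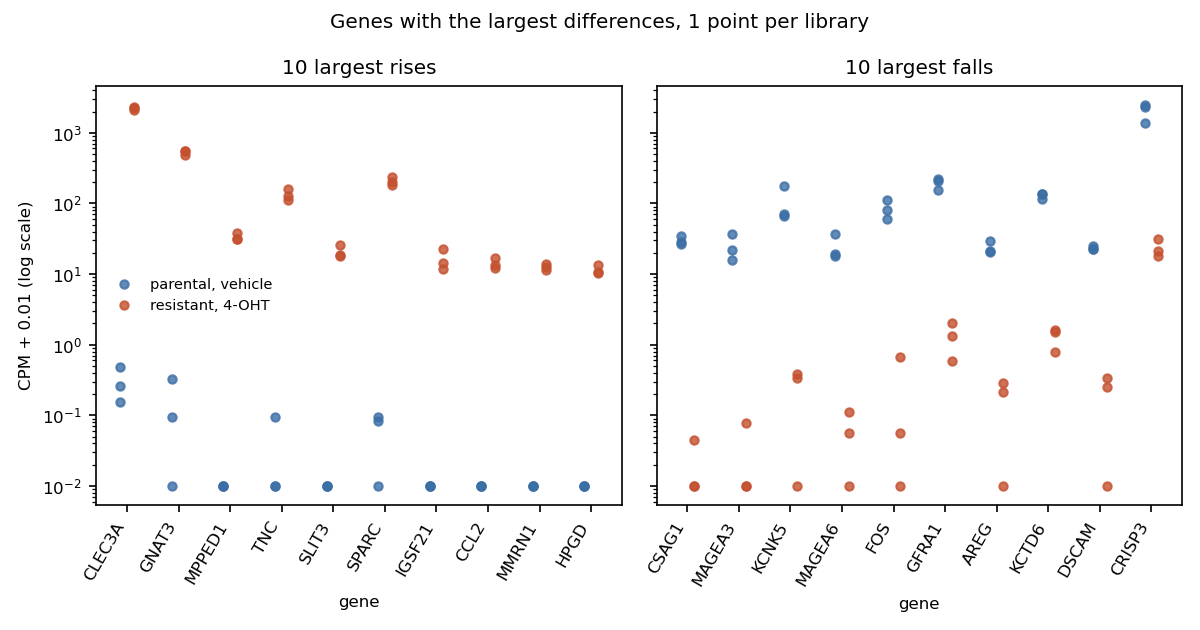
CPM per library (log axis, 0.01 added so that libraries at 0 can be drawn) for the 10 genes with the largest rises and the 10 with the largest falls under the naming rule. Blue points are the 3 parental libraries and orange points the 3 resistant libraries on 4-OHT. The rule took only genes whose groups do not overlap, and points at the bottom edge are libraries at 0.

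**Figure D2:**
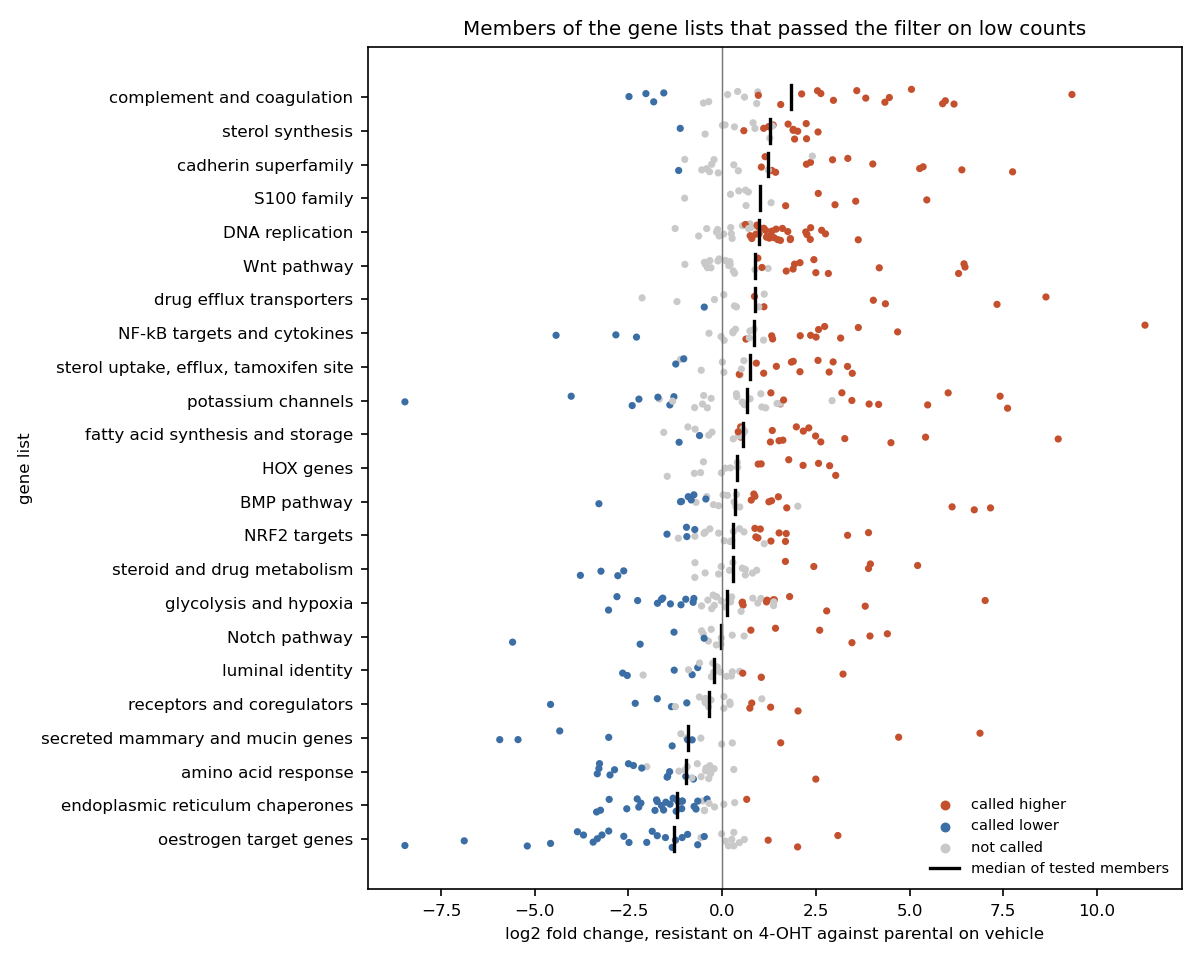
log2 fold change (horizontal axis) of every list member that passed the filter on low counts, for the lists with at least 10 such members, ordered by their median (black bar). Orange points were called higher, blue points lower and grey points not called; the oestrogen target and endoplasmic reticulum chaperone lists lie furthest to the left, and complement and coagulation, sterol synthesis and cadherin genes furthest to the right.

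Oestrogen target genes were lower as a group in resistant cells on 4-OHT than in parental cells, but not uniformly. Of the 35 listed, 34 passed the filter on low counts, of which 22 fell and 3 rose, with a median log2 fold change of -1.29. In resistant cells on vehicle, set against the same parental libraries, the list median was -1.22. Between resistant cells on 4-OHT and on vehicle it was -0.04. ESR1, which encodes ERα (ENSG00000091831, chromosome 6, 151656691 to 152129619), stood at 662, 589 and 476 CPM in the parental libraries and 215, 239 and 222 CPM in the resistant libraries. The groups did not overlap, and the difference was -1.35 (SE 0.16, adjusted p = 1.27e-05). GREB1, which encodes a cofactor of ER (ENSG00000196208, chromosome 2, 11482341 to 11642788), fell from 486 ± 36.3 to 13.3 ± 2.87 CPM (SD, n = 3), by 5.20 (SE 0.21, adjusted p = 4.33e-10). PGR, the progesterone receptor gene (ENSG00000082175, chromosome 11, 101029624 to 101129813), stood at 4679, 4146 and 2766 CPM in the parental libraries and 144, 176 and 166 CPM in the resistant libraries, a difference of -4.58 (SE 0.27, adjusted p = 1.76e-08). The insulin-like growth factor binding protein genes IGFBP4 and IGFBP5 fell by 3.21 and 1.87. STC2, a stanniocalcin gene, fell by 3.33, and the calcitonin receptor gene CALCR by 3.86. SIAH2, a ubiquitin ligase gene, fell by 3.70 on the log2 scale. Several textbook targets did not pass the test. TFF1, the trefoil factor gene long used as a readout of ER activity, stood at 1.59, 0.477 and 5.42 CPM in the parental libraries and 4.54, 1.29 and 1.95 CPM in the resistant libraries, with a difference of -0.01 (SE 0.98, adjusted p = 0.993). The TFF1 groups overlapped. CTSD, the cathepsin D gene, stood at 0.46 (SE 0.69, adjusted p = 0.649), and PDZK1, a scaffold gene, at 0.17 (SE 0.19, adjusted p = 0.539). The 3 that rose were CCND1 (1.23, SE 0.17, adjusted p = 5.31e-05), which encodes cyclin D1, WFS1 (2.01, SE 0.62, adjusted p = 0.0206), the wolframin gene, and TPD52L1 (3.09, SE 0.15, adjusted p = 3.50e-09), a tumour protein D52 family gene.

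Other nuclear receptors moved in both directions. Of 26 listed receptors and coregulators, 21 passed the filter, 4 rose and 5 fell, with a median of -0.36. NR3C1, the glucocorticoid receptor gene (ENSG00000113580, chromosome 5, 143277931 to 143435512), stood at 37.3, 43.8 and 26.1 CPM in the parental libraries and 6.88, 8.07 and 6.55 CPM in the resistant libraries, a difference of -2.32 (SE 0.30, adjusted p = 3.98e-05). NRIP1, a corepressor gene that is itself an oestrogen target, fell by 1.73 (SE 0.26, adjusted p = 1.48e-04). The vitamin D receptor gene VDR rose (0.79), as did the corepressor gene TLE3 (1.29). None of the p160 coactivator genes NCOA1, NCOA2 and NCOA3 was called, with log2 fold changes of -0.30, 0.05 and -0.45. After the GC and length correction, 12 of the 21 were called lower in place of 5.

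Most luminal identity genes were not called, but the same held for all tested genes, of which 35.3% were called. The share called among luminal genes was close to that, so it does not set them apart. Of 22 listed, 21 passed the filter, 3 rose and 5 fell, with a median of -0.23, which ran from -0.54 (without resistant replicate 1) to 0.36 (without parental replicate 3) when 1 library was left out; 9 were lower after the GC and length correction. FOXA1, which encodes a pioneer factor that opens chromatin for ER, stood at 409.5, 427 and 343 CPM in the parental libraries and 155, 183 and 148 CPM in the resistant libraries, a difference of -1.28 (SE 0.14, adjusted p = 9.64e-06). TFAP2C, a transcription factor gene of luminal cells, fell by 2.53 (SE 0.16, adjusted p = 3.37e-08), and MLPH, the melanophilin gene, by 2.65 (SE 0.32, adjusted p = 1.98e-05). GATA3, a luminal transcription factor gene, stood at 437, 457 and 563 CPM in the parental libraries and 650.1, 567 and 512 CPM in the resistant libraries. Its groups overlapped and it was not called (0.25, SE 0.16, adjusted p = 0.247). TBX3, a T-box transcription factor gene, rose by 3.23 (SE 0.18, adjusted p = 7.84e-09). CDH1, the E-cadherin gene, rose from 611 ± 81.4 to 1261 ± 88.2 CPM (1.05, SE 0.13, adjusted p = 3.29e-05). VIM, the vimentin gene of mesenchymal cells, had 2 parental counts and 1.86, 0 and 1.49 CPM in the resistant libraries, a ratio of 33.2 (95% counting interval 8.92 to 279). FGFR1, which encodes a fibroblast growth factor receptor, stood at 7.55, 5.24 and 8.04 CPM in the parental libraries and 74.02, 53.2 and 61.3 CPM in the resistant libraries, a rise of 3.16 (SE 0.29, adjusted p = 1.36e-06).

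Secreted products of breast epithelium changed sharply in opposite directions. Of 31 listed secreted mammary and mucin genes, 15 passed the filter, 7 fell and 3 rose, with a median of -0.92, which was -0.56 without parental replicate 3, -0.61 without resistant replicate 3 and -0.26 with no filter on low counts. PIP, the prolactin-induced protein gene, stood at 1361, 1548 and 1031 CPM in the parental libraries and 28.5, 42.3 and 20.03 CPM in the resistant libraries, a difference of -5.45 (SE 0.38, adjusted p = 7.71e-08). APOD, the apolipoprotein D gene, fell by 5.93 (SE 0.44, adjusted p = 1.76e-07). AZGP1, which encodes a secreted zinc-binding glycoprotein, stood at 119, 98 and 95.6 CPM in the parental libraries and 4.40, 5.96 and 5.25 CPM in the resistant libraries, a difference of -4.33 (SE 0.21, adjusted p = 2.85e-09). PIP, APOD and AZGP1 are known as products of apocrine cells, and all 3 fell. The secretoglobin gene SCGB2A2, which encodes mammaglobin, went the other way, with 0, 0 and 0.146 CPM in the parental libraries and 13.3, 9.24 and 8.46 CPM in the resistant libraries, a rise of 6.88 (SE 0.69, adjusted p = 3.01e-06). Its partner SCGB1D2 had 1 parental count and 0.516, 1.29 and 0.465 CPM in the resistant libraries, a ratio of 27.8 (95% counting interval 4.68 to 1130). CLU, the clusterin gene, was the other riser (1.56, SE 0.38, adjusted p = 0.00535).

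Chaperones of the endoplasmic reticulum were lower almost throughout their list. The endoplasmic reticulum folds secreted and membrane proteins, and when unfolded protein accumulates there the sensors ATF6, IRE1 (gene ERN1) and PERK raise transcription of chaperones, in part through a promoter sequence called the ER stress response element. Of 34 listed genes, 33 passed the filter, 25 fell and 1 rose, with a median log2 fold change of -1.22. HSPA5, which encodes BiP, the main chaperone of this compartment (ENSG00000044574, chromosome 9, 125234853 to 125241382), stood at 7073, 7086 and 6788 CPM in the parental libraries and 733, 693 and 781 CPM in the resistant libraries. The highest resistant library was far below the lowest parental one, a difference of -3.25 (SE 0.16, adjusted p = 3.65e-09). HSP90B1, which encodes the chaperone GRP94 (ENSG00000166598, chromosome 12, 103930107 to 103953931), stood at 5404, 5365 and 4680.1 CPM in the parental libraries and 1143, 988 and 1304 CPM in the resistant libraries, a difference of -2.17 (SE 0.21, adjusted p = 1.83e-06). MANF, which encodes a secreted factor induced by such stress, stood at 195, 239 and 210.3 CPM in the parental libraries and 24.4, 30.4 and 25.1 CPM in the resistant libraries, a difference of -3.01 (SE 0.18, adjusted p = 1.98e-08). HERPUD1, a gene of the degradation machinery for misfolded proteins, fell by 2.55 (SE 0.22, adjusted p = 7.75e-07). SDF2L1, which encodes a BiP partner, fell by 3.35 (SE 0.72, adjusted p = 0.00214), HYOU1, a large chaperone gene, by 2.27, and CRELD2, another stress-induced gene, by 2.23. The sensor genes ATF6 (-1.39) and ERN1 (-1.06) and the transcription factor gene XBP1 (-0.65) were also lower. The protein disulphide isomerase genes PDIA3, PDIA4 and PDIA6 fell by 1.73, 1.56 and 1.22. P4HB, another isomerase gene of this family, was not called (0.33, SE 0.24, adjusted p = 0.304), and FKBP14, a prolyl isomerase gene, was the riser (0.66, SE 0.23, adjusted p = 0.0423), a call that was lost without any 1 of parental replicates 2 and 3 and resistant replicates 1 and 3.

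Some of the promoters of these chaperones held that sequence. RefSeq windows (GRCh38.p14) from 250 bases before to 50 after each annotated start were searched on both strands for the ER stress response element, the letters CCAAT and CCACG with any 9 bases between them. It was in 25 of 27305 genes with a window (0.0916%) and in 16 of the 11385 tested genes with one (0.141%). Of the 30 chaperone genes with a window, 8 held it (26.7%), and all 8 were called lower: CALR, CANX, CRELD2, HSP90B1, HSPA5, PDIA6, SERP1 and XBP1. Of the 1920 genes called lower with a window, 11 held it (0.573%), against 1 of 2255 called higher (0.0443%), which was SYNPO (1.69). The 3 others called lower were EIF2A (-1.30), ERO1B (-1.62) and FICD (-1.30), and the 4 not called were ALG12 (-0.92), TMEM120A (-1.45), TRIM5 (0.36) and ZNF17 (-0.08). These are counts of genes, not of sites: SERP1 and EIF2A have overlapping windows and share 1 site, and CRELD2 and ALG12 share another. A match is a description of these letters, not a measured binding site. The 250 bases before the start are shown for the 3 genes of this kind named above, HSPA5 at chr9:125241344-125241593 (minus strand), HSP90B1 at chr12:103930160-103930409 (plus strand) and CRELD2 at chr22:49918384-49918633 (plus strand), read along the gene with the element in capitals:
HSPA5: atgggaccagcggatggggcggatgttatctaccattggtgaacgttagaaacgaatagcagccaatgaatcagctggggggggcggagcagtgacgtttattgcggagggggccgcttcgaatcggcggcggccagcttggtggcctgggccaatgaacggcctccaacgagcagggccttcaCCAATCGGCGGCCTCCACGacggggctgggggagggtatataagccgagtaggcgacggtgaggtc
HSP90B1: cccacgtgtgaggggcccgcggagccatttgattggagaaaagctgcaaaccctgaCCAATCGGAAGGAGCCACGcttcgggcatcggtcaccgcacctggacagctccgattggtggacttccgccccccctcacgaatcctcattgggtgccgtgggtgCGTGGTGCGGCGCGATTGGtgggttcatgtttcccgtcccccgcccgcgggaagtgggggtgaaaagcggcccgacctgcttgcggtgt
CRELD2: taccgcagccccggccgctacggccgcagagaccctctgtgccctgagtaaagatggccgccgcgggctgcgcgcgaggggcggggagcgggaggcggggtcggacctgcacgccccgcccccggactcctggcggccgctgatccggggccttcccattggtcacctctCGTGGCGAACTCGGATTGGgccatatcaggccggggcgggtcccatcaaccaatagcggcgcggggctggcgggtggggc
The HSPA5 element began 66 bases before the start. HSP90B1 held it on both strands, beginning 194 and 89 bases before the start. The matched letters in other chaperone genes differ in the 9 bases between the fixed ends, which is the part of the element that is free to vary:
PDIA6: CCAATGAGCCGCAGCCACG
XBP1: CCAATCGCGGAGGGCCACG
CANX: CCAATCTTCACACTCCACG
PDIA6, XBP1 and CANX had log2 fold changes of -1.22, -0.65 and -1.07, smaller than that of HSPA5. MANF, HERPUD1 and SDF2L1 also fell, and their windows held no match. The palindromic oestrogen response element, GGTCA and TGACC with any 3 bases between them, was in none of the 24 oestrogen target genes with a window and in 3 of the tested genes (0.0264%).

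**Figure D3:**
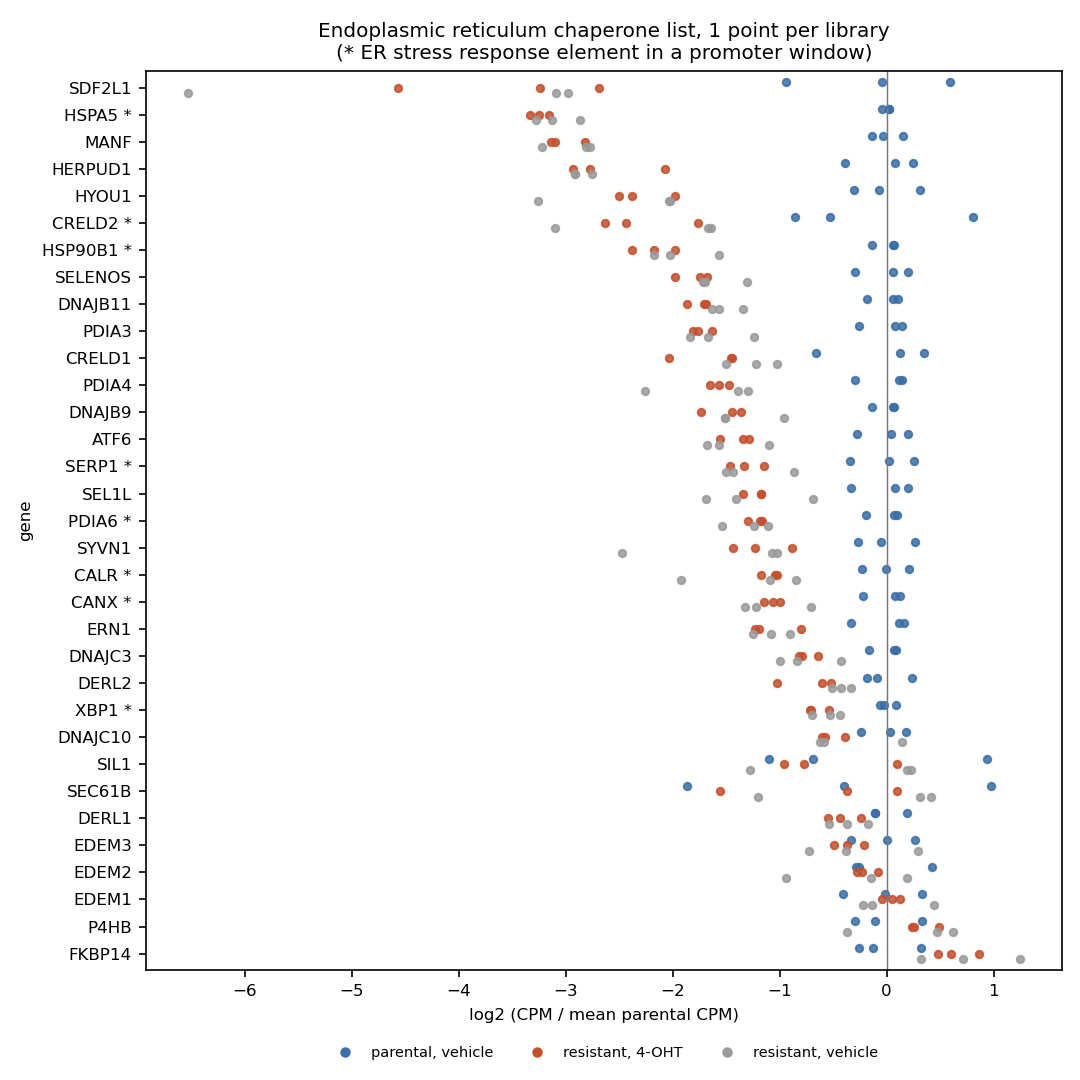
Level of each tested chaperone list gene in each library as log2 of its CPM over the mean parental CPM (horizontal axis), ordered by the fold change on 4-OHT. Blue points are parental, orange resistant on 4-OHT and grey resistant on vehicle, and an asterisk marks genes with the ER stress response element in a promoter window; from SDF2L1 to XBP1 every orange point is left of every blue one.

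Genes of the amino acid and integrated stress response were lower in part. In this response the kinases PERK and GCN2 favour translation of the transcription factor ATF4, which raises genes for amino acid supply. Of 31 listed genes, 30 passed the filter, 13 fell and 1 rose, with a median of -0.95; without parental replicate 3 it was -0.63 and 2 rose. TRIB3, a pseudokinase gene induced by ATF4, stood at 136, 187 and 157 CPM in the parental libraries and 14.7, 21.6 and 13.6 CPM in the resistant libraries, a difference of -3.27 (SE 0.32, adjusted p = 2.18e-06). The TRIB3 groups did not overlap, which the naming rule required. ATF4 itself fell by 1.47 (SE 0.14, adjusted p = 2.71e-06), DDIT3, which encodes the stress factor CHOP, by 2.87 (SE 0.28, adjusted p = 2.32e-06), and CEBPB by 2.99 (SE 0.44, adjusted p = 1.10e-04). GDF15, a stress-induced cytokine gene, fell by 3.29 (SE 1.08, adjusted p = 0.0288), a call that was lost without the 2 shallowest libraries and without any 1 of parental replicate 3, resistant replicate 2 and resistant replicate 3. SLC3A2, the shared subunit gene of amino acid exchangers, fell by 2.15 (SE 0.32, adjusted p = 1.15e-04). Genes of the synthesis of serine and asparagine moved less: PSAT1 fell by 0.77, while PHGDH (-0.31), PSPH (-0.36) and ASNS (-0.93) were not called. DDIT4, which encodes the mTOR inhibitor REDD1, rose by 2.50 (SE 0.26, adjusted p = 4.34e-06). With the GC and length correction 22 of the list were called lower in place of 13.

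Sterol genes were higher, including both enzymes of the tamoxifen binding site. Cells match cholesterol supply through the SREBP transcription factors, which raise synthesis and uptake genes when membrane sterol is low and are held back by the INSIG proteins. EBP, an isomerase of late cholesterol synthesis (ENSG00000147155, chromosome X, 48521799 to 48528716), stood at 2.35, 1.75 and 4.98 CPM in the parental libraries and 12.5, 12.7 and 10.2 CPM in the resistant libraries, a rise of 1.90 (SE 0.43, adjusted p = 0.00324). DHCR7, the last reductase of the pathway (ENSG00000172893, chromosome 11, 71428193 to 71452868), stood at 22.9, 22.6 and 43.2 CPM in the parental libraries and 214, 166 and 147 CPM in the resistant libraries, a rise of 2.56 (SE 0.46, adjusted p = 5.50e-04). For both genes the groups did not overlap. All 21 listed sterol synthesis genes passed the filter; 12 rose and 1 fell, with a median of 1.27. MVK, the mevalonate kinase gene, rose by 2.25 (SE 0.32, adjusted p = 8.70e-05), ACAT2, which makes acetoacetyl-CoA, by 2.24 (SE 0.16, adjusted p = 7.91e-08), and MSMO1, a demethylase gene, by 2.02 (SE 0.16, adjusted p = 3.90e-07). SQLE, which encodes squalene epoxidase, rose by 1.89, and HMGCS1, the synthase gene, by 1.76. PMVK, the phosphomevalonate kinase gene, was the one that fell (-1.12, SE 0.38, adjusted p = 0.0344), a call that was lost without resistant replicate 2 or resistant replicate 3.

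Uptake, efflux and regulator genes of the sterol pathway were also called higher more often than lower. Of 27 listed, 22 passed the filter, 12 rose and 2 fell, with a median of 0.75. The median was 1.20 without parental replicate 3, and 0.46 after the GC and length correction, with 4 lower. None fell in edgeR without resistant replicate 3, and 1 fell when any 1 of the parental libraries or resistant replicate 2 was left out. SCARB1, the receptor gene for high-density lipoprotein, rose by 3.34 (SE 0.42, adjusted p = 2.72e-05). INSIG1, an SREBP target and brake, stood at 8.47, 10.8 and 8.99 CPM in the parental libraries and 106, 98.3 and 107 CPM in the resistant libraries, a rise of 3.47 (SE 0.15, adjusted p = 1.05e-09). ABCA1, the cholesterol exporter gene, rose by 2.85 (SE 0.43, adjusted p = 1.45e-04). NR1H3, which encodes a liver X receptor that activates ABCA1, fell by 1.24 (SE 0.36, adjusted p = 0.016). Both SREBF1 (2.08, SE 0.61, adjusted p = 0.0155) and SREBF2 (0.91, SE 0.25, adjusted p = 0.00965) were higher. The sterol regulatory element, TCAC and CCAC with any 1 base between them, was in the windows of 1.42% of tested genes, of 1.73% of those called higher and of none of the 16 sterol synthesis genes with a window. SREBF2 held it 133 bases before its start (chr22:41832855-41833104, plus strand, element in capitals), and is shown because it is the one gene of the uptake and regulator list with a match:
SREBF2: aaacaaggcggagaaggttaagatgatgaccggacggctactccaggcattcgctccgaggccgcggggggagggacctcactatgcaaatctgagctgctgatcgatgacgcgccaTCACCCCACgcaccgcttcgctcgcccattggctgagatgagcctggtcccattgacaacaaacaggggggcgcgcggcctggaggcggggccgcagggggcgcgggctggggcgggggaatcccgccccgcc

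Fatty acid genes rose alongside. Of 34 listed genes of fatty acid synthesis and storage, 29 passed the filter, 17 rose and 2 fell, with a median of 0.55; 11 were higher in a test against a 1.5-fold change, and the median was 1.18 without parental replicate 3. In place of 2, 1 fell when any 1 of parental replicates 1 and 2 and resistant replicates 1 and 2 was left out, and 4 after the GC and length correction. CD36, which encodes a fatty acid translocase at the cell surface (ENSG00000135218, chromosome 7, 80369575 to 80679277), stood at 6.38, 9.05 and 4.33 CPM in the parental libraries and 2732, 3569.6 and 3217 CPM in the resistant libraries. The parental and resistant levels were further apart than for any other gene of these lipid lists, with a rise of 8.97 (SE 0.35, adjusted p = 3.49e-10). GNAT3, named above among the largest rises, lies within the annotated span of CD36 on the other strand, so both rises are at 1 locus. SCD5, a stearoyl-CoA desaturase gene, rose by 5.43 (SE 0.45, adjusted p = 5.66e-07), and SCD, its main paralogue, by 2.49 (SE 0.18, adjusted p = 9.40e-08). ACSL4, which activates polyunsaturated fatty acids, rose by 4.50 (SE 0.45, adjusted p = 2.94e-06), and PNPLA3, a lipid droplet hydrolase gene, by 3.27 (SE 0.29, adjusted p = 8.88e-07). The synthesis enzymes ACLY, ACACA and FASN rose by 2.17, 2.31 and 2.63. FASN varied most among them, with 12.5, 9.69 and 59.9 CPM in the parental libraries and 322, 82.1 and 116 CPM in the resistant libraries. PLIN2, the lipid droplet coat gene, fell by 1.15 (SE 0.26, adjusted p = 0.00312).

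**Figure D4:**
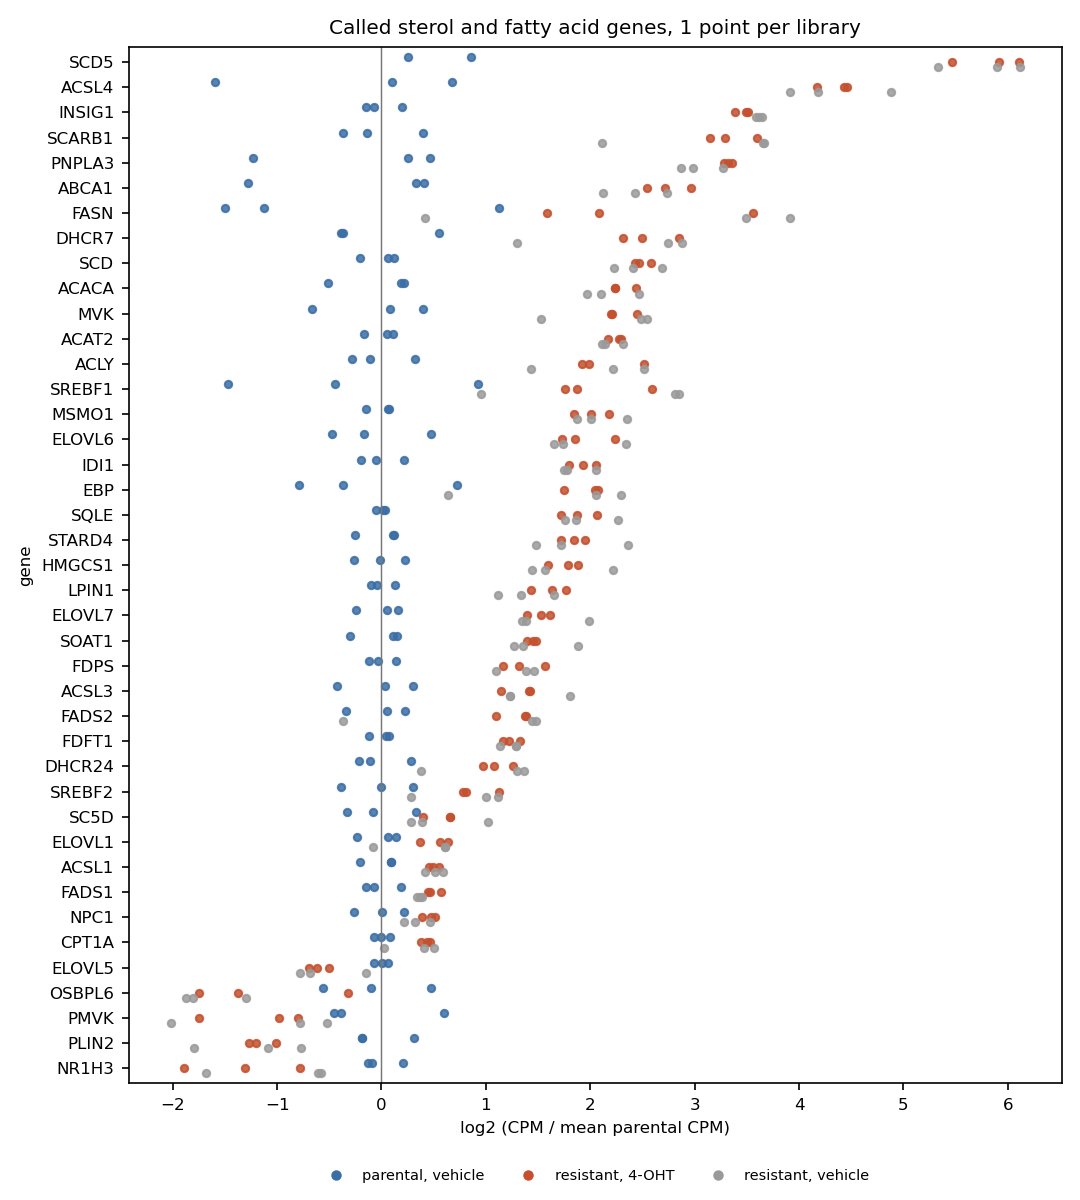
Level of 41 called sterol and fatty acid genes in each library as log2 of its CPM over the mean parental CPM (horizontal axis), ordered by fold change; CD36 is left out because its values exceed the scale, and libraries at 0 are not drawn. Blue points are parental, orange resistant on 4-OHT and grey resistant on vehicle; most genes lie to the right of 0 in the resistant libraries, and 5 at the bottom (ELOVL5, OSBPL6, PMVK, PLIN2 and NR1H3) to the left.

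Enzymes and transporters that handle steroids and drugs changed gene by gene. Of 51 listed steroid and drug metabolism genes, 21 passed the filter, 5 rose and 4 fell, with a median of 0.29. The median was 0.43 without parental replicate 3, 0.82 with thinned counts, where 4 rose and 2 fell, and 0.11 after the GC and length correction. HSD17B6, a hydroxysteroid dehydrogenase gene, stood at 0.336, 0.318 and 0.255 CPM in the parental libraries and 11.1, 12.98 and 9.11 CPM in the resistant libraries, a rise of 5.22 (SE 0.28, adjusted p = 7.18e-09). STS, the steroid sulphatase gene that frees oestrone from its sulphate, rose by 2.45 (SE 0.30, adjusted p = 1.89e-05), and CYP1B1, which hydroxylates oestradiol, by 1.69 (SE 0.19, adjusted p = 1.03e-05). AKR1C3, which reduces oestrone and androgens, rose by 3.91 (SE 0.81, adjusted p = 0.00174). UGT2B15, whose enzyme conjugates androgens and 4-OHT, fell by 3.23 (SE 0.87, adjusted p = 0.00965), and the sulphotransferase gene SULT1A2 by 2.63 (SE 0.81, adjusted p = 0.0209). The cytochrome genes of tamoxifen activation in liver, CYP2D6 and CYP3A4, did not pass the filter on low counts. Of 19 listed drug efflux transporters, 15 passed the filter, 6 rose and 1 fell, with a median of 0.86. After the GC and length correction the median was 0.41 and 3 were lower. The 1 lower call became 2 without parental replicate 3 and 0 without any 1 of parental replicate 2, resistant replicate 1 and resistant replicate 2. ABCC3, which exports conjugated drugs, stood at 3.44, 4.45 and 4.48 CPM in the parental libraries and 99.02, 77.99 and 76.3 CPM in the resistant libraries, a rise of 4.36 (SE 0.38, adjusted p = 8.99e-07). ABCC4, a related exporter, had no parental counts and was at least 28.8-fold higher. ABCB1 and ABCG2, the best known exporters in drug resistance, did not pass the filter.

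NRF2 target genes, which answer oxidative stress, were split. Of 33 listed, 27 passed the filter, 10 rose and 4 fell, with a median of 0.30; 1 fell in a test against a 1.5-fold change, and the median was 0.92 without parental replicate 3, 0.49 without resistant replicate 2 and 0.11 after the GC and length correction. PIR, the pirin gene, stood at 1.85, 2.38 and 2.62 CPM in the parental libraries and 22.8, 22.3 and 25.1 CPM in the resistant libraries, a rise of 3.35 (SE 0.21, adjusted p = 2.54e-08). EPHX1, an epoxide hydrolase gene, rose by 1.69 (SE 0.36, adjusted p = 0.00197), GSTA4, a glutathione transferase gene, by 1.52 (SE 0.26, adjusted p = 4.23e-04), and NQO1, the classical target, by 1.30 (SE 0.15, adjusted p = 9.63e-06). GSTM3, another glutathione transferase gene, fell by 1.47 (SE 0.21, adjusted p = 9.49e-05). TXNRD1 (0.21) and SLC7A11 (-0.33) were not called.

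Glycolysis and hypoxia genes moved both ways, 11 higher and 11 lower of the 40 that passed the filter among 43 listed. Their median of 0.13 turned to -0.11 after the GC and length correction, to -0.055 without resistant replicate 1 and to -0.004 without parental replicate 2, and was 0.50 without parental replicate 3. EGLN3, which encodes an oxygen-sensing prolyl hydroxylase and is itself a target of hypoxia-inducible factors, stood at 0.671, 0 and 0.619 CPM in the parental libraries and 59.3, 77.6 and 67.9 CPM in the resistant libraries, a rise of 7.02 (SE 0.42, adjusted p = 1.70e-08). ANGPTL4, a secreted lipase inhibitor gene, rose by 2.79 (SE 0.72, adjusted p = 0.00765). PFKFB3, whose enzyme sets the level of a glycolysis activator, stood at 243, 207 and 288 CPM in the parental libraries and 41.3, 27.1 and 36.8 CPM in the resistant libraries, a difference of -2.81 (SE 0.20, adjusted p = 9.83e-08). NDRG1, another hypoxia target, fell by 2.26 (SE 0.26, adjusted p = 1.40e-05), VEGFA by 1.59 (SE 0.31, adjusted p = 0.00123) and ANKRD37 by 3.03 (SE 0.76, adjusted p = 0.00624). The glycolytic enzyme genes PGK1 (1.39), PKM (1.37), ENO1 (1.20) and PGAM1 (1.18) rose, while GAPDH was not called (1.04, SE 0.57, adjusted p = 0.179). SLC2A1, the main glucose transporter gene, was not called (0.08, SE 0.42, adjusted p = 0.9).

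DNA replication genes were higher in the resistant cells on the drug. All 44 listed genes passed the filter; 29 rose and none fell at an adjusted p under 0.05 in edgeR, with a median of 0.98. At an unadjusted p under 0.05, 2 were lower, CDT1 and GINS3, and DESeq2 called 1 lower. In a test against a 1.5-fold change 19 were higher, and with the GC and length correction 3 were lower. MCM10, a replication initiation gene (ENSG00000065328, chromosome 10, 13161558 to 13211110), stood at 3.86, 3.97 and 3.24 CPM in the parental libraries and 40.3, 48.8 and 46.6 CPM in the resistant libraries, a rise of 3.63 (SE 0.21, adjusted p = 1.40e-08). CLSPN, which encodes claspin of the replication checkpoint, rose by 2.76 (SE 0.26, adjusted p = 1.61e-06), CCNE1, the cyclin E1 gene, by 2.65 (SE 0.26, adjusted p = 2.52e-06) and E2F2, an S phase transcription factor gene, by 2.36 (SE 0.33, adjusted p = 6.24e-05). In each of these the groups did not overlap, which the naming rule required. Of the helicase subunit genes, MCM3, MCM4, MCM5, MCM6 and MCM7 rose by between 1.16 and 2.23, and MCM2 was not called (0.80, SE 0.60, adjusted p = 0.333). CDT1, the licensing factor gene, was not called either (-1.25, SE 0.55, adjusted p = 0.0895). The E2F element TTTCGCGC was in the windows of 6 of the 37 replication genes with one (16.2%), against 1.12% of tested genes, 0.931% of genes called higher and 1.15% of genes called lower. The 6 were MCM2, MCM3, MCM6, MCM7, POLA2 and UHRF1, of which MCM2 and POLA2 (-0.08) were not called. MCM6 held it at 148 and 86 bases before its start and is shown as the gene with a pair of matches that rose (1.61, SE 0.22, adjusted p = 6.78e-05; chr2:135876444-135876693, minus strand, element in capitals):
MCM6: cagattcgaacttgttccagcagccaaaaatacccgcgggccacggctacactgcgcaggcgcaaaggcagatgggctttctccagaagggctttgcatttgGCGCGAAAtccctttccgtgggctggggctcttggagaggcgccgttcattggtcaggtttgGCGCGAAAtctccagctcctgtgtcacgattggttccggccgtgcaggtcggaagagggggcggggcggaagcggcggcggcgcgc

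Among signalling pathways, the Notch ligand genes JAG1 and DLL1 were higher and the target genes HES1, HEY2 and NRARP lower. In Notch signalling a ligand on 1 cell releases the receptor's inner domain in its neighbour, which activates HES and HEY genes. Of 26 listed genes, 19 passed the filter, 6 rose and 4 fell, with a median of -0.03 (from -0.28 without parental replicate 1 to 0.27 without parental replicate 3; 8 were lower after the GC and length correction). The ligand gene JAG1 stood at 1.59, 1.59 and 1.02 CPM in the parental libraries and 16.5, 14.5 and 13.99 CPM in the resistant libraries, a rise of 3.46 (SE 0.25, adjusted p = 1.06e-07). A second ligand gene, DLL1, rose by 2.60 (SE 0.52, adjusted p = 0.00136), and the receptor genes NOTCH2 and NOTCH3 by 0.77 and 1.42. The target HES1 stood at 159.5, 247 and 163 CPM in the parental libraries and 40.8, 42.1 and 41.97 CPM in the resistant libraries, a difference of -2.19 (SE 0.19, adjusted p = 6.47e-07). HEY2 fell by 5.59 (SE 0.63, adjusted p = 9.98e-06) and NRARP by 1.29 (SE 0.32, adjusted p = 0.00576). DTX4, an E3 ligase gene of the pathway, rose by 4.41 (SE 0.29, adjusted p = 3.95e-08).

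Wnt pathway genes that were called were higher. Of 49 listed, 29 passed the filter, 13 rose and none fell at an adjusted p under 0.05 (3 were lower after the GC and length correction), with a median of 0.88; 8 rose with counts thinned to the lowest total. The median was 0.53 after the GC and length correction and 0.31 with no filter on low counts, and 2 were lower without parental replicate 3. FZD4 was lower at an unadjusted p under 0.05 in edgeR, the 1 gene of the list that was, and DESeq2 called 0 lower. AXIN2, the target that feeds back on the pathway, rose by 4.19 (SE 0.67, adjusted p = 2.34e-04), and the feedback ligase gene RNF43 by 1.89 (SE 0.37, adjusted p = 0.00123). LGR4, the R-spondin receptor gene, stood at 18.8, 18.9 and 16.2 CPM in the parental libraries and 124, 127 and 132 CPM in the resistant libraries, a rise of 2.83 (SE 0.20, adjusted p = 7.55e-08). TCF7L1, a nuclear factor gene, rose by 2.50 (SE 0.36, adjusted p = 9.22e-05), and the receptor genes FZD5 and FZD3 by 1.93 and 1.06. WNT5A, a non-canonical ligand, had 1 parental count and 1.89, 4.21 and 1.72 CPM in the resistant libraries, a ratio of 98.9 (95% counting interval 17.4 to 3940). The inhibitor gene DKK1 had 2 parental counts against 4.44, 2.22 and 4.42 CPM, a ratio of 93.9 (95% counting interval 25.7 to 780).

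BMP pathway genes were split, with antagonists among the risers. Of 38 listed, 28 passed the filter, 10 rose and 7 fell, with a median of 0.34; 2 fell without the 2 shallowest libraries (parental replicate 2 and resistant replicate 2), 4 without parental replicate 2 alone and 3 without resistant replicate 3. The median was 0.17 without parental replicate 3, 0.215 without resistant replicate 2 and 0.11 after the GC and length correction, with 10 lower. CHRD, which encodes the antagonist chordin, stood at 0, 0.159 and 0.146 CPM in the parental libraries and 17.1, 8.07 and 10.2 CPM in the resistant libraries, a rise of 6.73 (SE 0.92, adjusted p = 5.70e-05). FSTL1, a follistatin-like gene, rose by 1.72 (SE 0.20, adjusted p = 1.02e-05), and FSTL3 rose from 6.80 ± 4.00 to 19.7 ± 1.30 CPM. FST, the follistatin gene, had no parental counts and 0.825, 0 and 1.39 CPM in the resistant libraries. The signal transducer genes SMAD1 and SMAD5 fell by 0.91 and 0.76, and the target ID2 by 1.11, while ID1 (0.47) and ID3 (0.38) were not called.

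NF-kB targets and cytokines were higher in 12 and lower in 3 of the 25 genes that passed the filter, of 46 listed, with a median of 0.85 (1.30 without parental replicate 3). With counts thinned to the lowest total, and also with the 2 groups alone in the fit, 22 passed the filter and 8 rose. Beside CCL2, TNFSF15, a TNF family ligand gene, rose from 1.41 ± 0.856 to 32.1 ± 1.57 CPM (4.68, SE 0.33, adjusted p = 9.29e-08). BIRC3, an apoptosis inhibitor gene, stood at 3.44, 1.11 and 1.71 CPM in the parental libraries and 11.01, 9.24 and 12.5 CPM in the resistant libraries, a rise of 2.36 (SE 0.39, adjusted p = 2.86e-04). IL32, a cytokine gene, rose by 3.16 (SE 0.50, adjusted p = 2.26e-04). The fallers were TRAF1 (-4.43, SE 0.66, adjusted p = 1.22e-04), CSF1 (-2.84, SE 0.71, adjusted p = 0.00643) and ICAM1 (-2.29, SE 0.44, adjusted p = 9.36e-04). NFKBIA, the classical feedback inhibitor of the factor, was not called (0.29, SE 0.22, adjusted p = 0.349), nor was TNFAIP3 (-0.03, SE 0.33, adjusted p = 0.957).

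Adhesion genes of the cadherin superfamily that passed the filter were called higher more often than lower. Of 52 listed, 25 passed, 13 rose and 1 fell, with a median of 1.23. After the GC and length correction 5 were lower, 2 without parental replicate 3 and 0 without parental replicate 2. Only 3 of the 15 libraries behind the filter were parental, so members near 0 in parental cells passed it more easily. With the 2 groups alone in the fit 20 passed, 9 rose and 0 fell, with a median of 1.21. With no filter on low counts 44 were tested, 15 rose and 1 fell. FAT2, a giant protocadherin gene, stood at 0.0839, 0 and 0.182 CPM in the parental libraries and 33.1, 27.5 and 23.8 CPM in the resistant libraries, a rise of 7.75 (SE 0.40, adjusted p = 4.35e-09). FAT1, its paralogue, rose by 5.27 (SE 0.56, adjusted p = 5.39e-06). PCDH11X, a protocadherin gene on chromosome X, rose by 5.36 (SE 0.66, adjusted p = 2.38e-05), and its near-identical copy on chromosome Y makes its counts uncertain. CDH3, the P-cadherin gene of basal breast cells, stood at 11.8, 15.1 and 17.3 CPM in the parental libraries and 176, 141 and 135 CPM in the resistant libraries, a rise of 3.35 (SE 0.30, adjusted p = 1.26e-06). CDH2, the N-cadherin gene, had 3 parental counts and 0.378, 0.468 and 0.744 CPM in the resistant libraries, a ratio of 7.98 (95% counting interval 2.49 to 40.8). Desmosomal DSG2 (-0.22) and DSC2 (-0.34) were not called.

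Among S100 calcium-binding protein genes, 5 of the 12 that passed the filter rose and none fell at an adjusted p under 0.05, of 20 listed, with a median of 1.00. Without parental replicate 1, 3 rose and the median was 0.54, and 3 rose without resistant replicate 1. DESeq2 found 0 lower, and in edgeR 0 of them were lower at an unadjusted p under 0.05. S100A14 stood at 0.168, 0.318 and 1.96 CPM in the parental libraries and 59.8, 29 and 47.5 CPM in the resistant libraries, a rise of 5.46 (SE 0.60, adjusted p = 7.99e-06), and S100A4 at 0.671, 0.159 and 1.46 CPM in the parental libraries and 11.1, 9.59 and 10.9 CPM in the resistant libraries, a rise of 3.56 (SE 0.50, adjusted p = 6.85e-05). In both genes the groups did not overlap, which the naming rule required. S100A1 (2.56) and S100A6 (1.69) lost their calls without the 2 shallowest libraries and without any 1 of parental replicate 1, parental replicate 2 and resistant replicate 1. Of 39 HOX genes, which set position along the body axis, 16 passed the filter, 7 rose and none fell at an adjusted p under 0.05, with a median of 0.41; 1, HOXC11, was lower at an unadjusted p under 0.05 in edgeR, and DESeq2 called 0 lower. The HOX median was 0.75 without parental replicate 3, 1.035 with a filter at 1 CPM in 3 libraries and 0.21 after the GC and length correction, with 1 lower. The largest of those with at least 5 CPM were in the HOXC cluster on chromosome 12: HOXC8 rose by 2.87 (SE 0.36, adjusted p = 2.50e-05), HOXC6 by 2.57 (SE 0.53, adjusted p = 0.00175), HOXC4 by 2.16 (SE 0.21, adjusted p = 2.89e-06) and HOXC13 by 1.78 (SE 0.27, adjusted p = 1.51e-04). HOXC10 (0.41) and HOXC11 (-0.58), which lie between them in the cluster, were not called.

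Potassium channel genes changed in both directions. Of 79 listed, 36 passed the filter, 11 rose and 7 fell, with a median of 0.67; 7 rose, with a median of 0.10, with counts thinned to the lowest total. KCNK2, a mechanically gated background channel gene, stood at 1002, 1137 and 845 CPM in the parental libraries and 52.5, 74.5 and 56.2 CPM in the resistant libraries, a difference of -4.03 (SE 0.20, adjusted p = 2.81e-09). KCNC1, a voltage-gated channel gene, rose by 5.48 (SE 0.55, adjusted p = 3.16e-06). KCNMA1, the calcium-activated channel gene, rose by 3.19 (SE 0.17, adjusted p = 4.35e-09). The 7 that fell included KCNK5 and KCNK2, from the same channel family, while KCNK1 (-0.39) and KCNK6 (-0.29) were not called.

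Complement and coagulation genes had a median of 1.84, which was 0.98 without the 2 shallowest libraries, 0.98 with the 2 groups alone in the fit and 0.81 with no filter on low counts. Among lists with at least 10 tested members it was the highest, but in these 3 alternatives and without resistant replicate 2 (1.34, against 1.46 for sterol synthesis) another list was higher. Of 51 listed, 26 passed the filter, 15 rose and 4 fell. C3, the central complement component gene, stood at 2.27, 2.22 and 3.64 CPM in the parental libraries and 28.8, 16.02 and 20.5 CPM in the resistant libraries, a rise of 2.97 (SE 0.49, adjusted p = 3.10e-04). PROCR, the receptor gene of activated protein C, stood at 0.587, 0 and 0.327 CPM in the parental libraries and 28.1, 18.9 and 18.2 CPM in the resistant libraries, a rise of 5.96 (SE 0.60, adjusted p = 3.46e-06). SERPINB5, which encodes maspin of myoepithelial cells, had 1 parental count and 15.7, 18.7 and 18.2 CPM in the resistant libraries, a ratio of 780 (95% counting interval 140 to 30800). PROS1, the protein S gene, had 3 parental counts and a ratio of 88.1 (95% counting interval 29.9 to 429). C1S and C1R, protease genes of the first complement step, and SERPING1, the gene of their inhibitor, were called higher too, C1S by 3.83 and SERPING1 by 3.59. SERPINA1, the antitrypsin gene and an oestrogen target, fell by 2.49 (SE 0.34, adjusted p = 5.45e-05), and CD55, which protects cells from complement, by 2.03 (SE 0.22, adjusted p = 7.17e-06).

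Markers of other cell types were checked beside these results. In bulk RNA, fewer cells of a type and less RNA per cell cannot be told apart. The summed level of the 22 luminal markers was 6010 to 7021 CPM in the parental and 6275 to 7387 CPM in the resistant libraries. The 8 myoepithelial markers summed to 4.475 to 4.95 CPM and to 959.9 to 1209 CPM. That sum was carried by ACTA2, the smooth muscle actin gene, with 1.68, 2.06 and 2.04 CPM in the parental libraries and 1089, 1175 and 928 CPM in the resistant libraries, and by TP63, which stood at 1.59, 0 and 1.24 CPM in the parental libraries and 30.9, 31.6 and 30.1 CPM in the resistant libraries. Both rose, ACTA2 by 9.10 (SE 0.44, adjusted p = 2.78e-09) and TP63 by 4.84 (SE 0.46, adjusted p = 1.69e-06). The defining basal keratin gene KRT14 was at 0 in all 6 libraries, and KRT5, KRT17, MYH11 and CNN1 were at 0 in the parental libraries and under 5 CPM in the resistant ones. The part of these markers in the other results was not tested. The 9 fibroblast markers summed to 11.91 to 28.31 CPM and to 20.58 to 36.11 CPM, mostly COL1A1, which was not called (0.32); COL3A1 had no parental counts and 2.99, 1.87 and 2.32 CPM in the resistant libraries. THY1, another fibroblast marker, had 2 parental and 58 resistant counts and was called higher. Endothelial markers summed to at most 0.860 CPM. Immune markers summed to at most 0.982 CPM in the parental and 2.51 CPM in the resistant libraries. CD3E, MS4A1, LYZ and NKG7 were at 0 in both groups, but PTPRC, CD14, CD68 and ITGAM in the parental libraries only. ITGAM was called higher, with 0 parental and 78 resistant counts. Of the 5 adipocyte markers, ADIPOQ was called higher, with 0 parental and 38 resistant counts.

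The resistant cells had also been measured after the drug was replaced by vehicle for the same 120 h, which places the on-drug values. Between resistant cells on 4-OHT and on vehicle no gene was called by edgeR, with 127 genes at an unadjusted p under 0.05, and none by DESeq2, with 153. Resistant cells on vehicle differed from parental cells in 5818 genes (35.9%); this comparison shares the parental libraries with the one above, so the 2 are not independent. The interval of the difference between 4-OHT and vehicle lay within a 2-fold change either way for 9426 of 16210 genes (58.1%), for 3976 of the 5726 called against parental cells (69.4%) and for 81 of the 113 named genes. For the other genes the interval reached past a 2-fold change in at least 1 direction.

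Single genes show these levels side by side. GREB1 stood at 12.1, 16.6 and 11.3 CPM on 4-OHT and 11.5, 13.95 and 13.8 CPM on vehicle, a log2 difference of 0.02 (95% interval -0.37 to 0.40). HSPA5 stood at 733, 693 and 781 CPM on 4-OHT and 955, 797 and 717 CPM on vehicle, a difference of -0.16 (95% interval -0.48 to 0.16). EBP stood at 12.5, 12.7 and 10.2 CPM on 4-OHT and 4.69, 14.9 and 12.6 CPM on vehicle, a difference of 0.14 (95% interval -0.73 to 1.00). In GREB1 and HSPA5 both resistant groups were far below every parental library, and in EBP above the parental mean. ESR1 differed by 0.09 (95% interval -0.24 to 0.42). The interval of CYP1B1, an enzyme gene inducible by many drugs, was 0.02 (95% interval -0.38 to 0.41). Of the 97 named genes with at least 5 CPM on 4-OHT, 94 differed by less than 0.5 on the log2 scale. AZGP1 differed most among them, 0.75 (95% interval 0.33 to 1.17), with 4.40, 5.96 and 5.25 CPM on 4-OHT and 2.32, 3.29 and 3.52 CPM on vehicle. Its adjusted p over all genes was 1. CCL2 differed by 0.58 (95% interval -0.08 to 1.24).

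**Figure D5:**
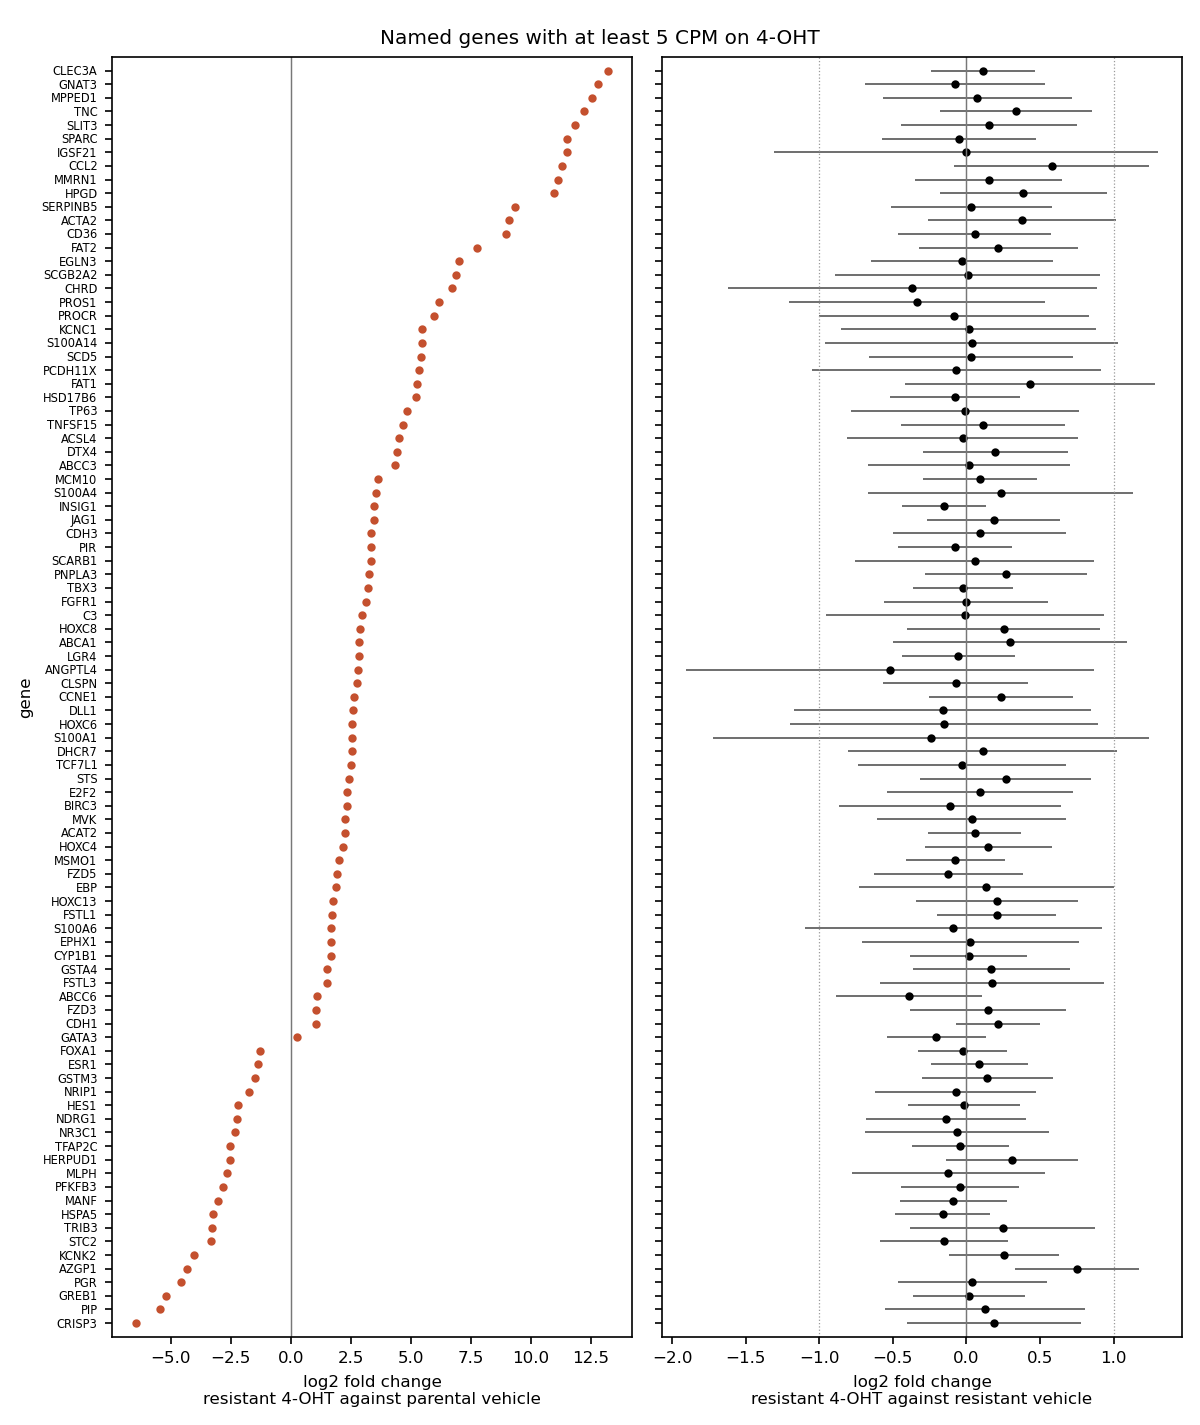
Left, log2 fold change of resistant cells on 4-OHT against parental cells for 93 of the 97 named genes with at least 5 CPM on 4-OHT; right, log2 fold change of resistant cells on 4-OHT against resistant cells on vehicle for the same genes, with 95% intervals (lines) and dotted lines at a 2-fold change either way. The left panel spans from CRISP3 at the bottom to CLEC3A at the top, while the points on the right lie between -0.52 and 0.75.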

How the data were processed

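Per the file headers, the authors made the deposited raw counts of Ensembl 104 genes with featureCounts 2.0.1, run paired-end and reverse-stranded. In the submitters' processing notes the version is 1.4.6-p1, and the alignment was by HISAT2 2.1.0 to GRCh38. Multi-mapping reads were left out by default, and read trimming was not given in the sources used here. Coordinates are those of the files.

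Tests were run in edgeR 4.0.16 (R 4.3.3). filterByExpr on the 5 groups kept 16210 genes and left out 44454, with TMM scaling (factors 0.907 to 1.102). A quasi-likelihood model with group means took all 15 libraries (10 residual degrees of freedom, common dispersion 0.09505). Genes were called at an adjusted p under 0.05, and the SE is the absolute log2 fold change over the square root of F. Folds against 0 counts used 3 counts over the group, and genes with 1 to 3 counts got an exact 95% counting interval; both cover counting error only. List medians were the same with such genes at these bounds, except in the fibroblast (4.33 against 4.48) and adipocyte (7.05 against 3.29) lists.

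The members and the 28 gene lists were chosen with earlier results of these data known. Named genes, all called with groups that did not overlap, were the 10 protein-coding genes that rose most and the 10 that fell most (mean log2 CPM at or above 2), up to 4 called members per list with at least 5 CPM in 1 group, and 13 fixed genes whatever their result. Counts of libraries in a group differed beyond counting error (chi-square per gene 17.3 to 120). On counts simulated for this comparison over 16210 genes, calls recovered 74.2% of genes changed 4-fold, 16.4% of those changed 2-fold and 3.48% of those changed 1.5-fold. Far fewer genes were changed there (198 to 201 per fold over all simulated sets) than were called in the data. The adjustment is stricter when fewer genes change, so these shares are not the recovery in the data. The alternatives were other scaling, DESeq2 1.42.0, other filters, 2-group fits, a replicate block, a 1.5-fold test, thinning, a GC and length correction (GENCODE 29) and leaving out libraries. Some of the named genes are not reported here, in the text or in the plots of single genes, but stay in all counts.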

Additional observations from a re-analysis of the deposited data

How the results depend on the processing

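The count for resistant cells on 4-OHT against parental cells, 5726, stayed within 1.5 times under every alternative run except the test against a 1.5-fold change, which called 3284. It was 4153 with the 2 groups alone in the fit, 4000 with counts thinned to the lowest total and 5075 without the 2 shallowest libraries (parental 2 and resistant 2), of which 4458 were among the 5726. Leaving out 1 library at a time gave 4770 to 5784. The GC and length correction called 8195. Withdrawn resistant against parental cells gave 3408 with 2 groups, 3297 in the 1.5-fold test and 4695 to 6266 without 1 library. The count for 4-OHT against vehicle was 0 in all alternatives.

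The correlations of deviations from the group mean between same-numbered libraries were -0.384, 0.293 and -0.164. The highest between any parental and resistant library was 0.659, for parental replicate 3 and resistant replicate 1. Libraries also differed along GC content, which can cover a pairing, so these values cannot tell whether the replicate numbers pair the libraries. With the replicate block 5459 genes were called, and 8045 with the block and the GC and length correction. Of the 113 named genes, 106 were called in every alternative run. VIM lost its call after thinning, FZD3 and GDF15 in the 1.5-fold test, and GDF15 with the block. GATA3, not called, turned to -0.11 with the GC and length correction and -0.078 with the block added. The cause was not tested. Depth limits genes near 0, where 3 counts equal 0.107 to 0.432 CPM.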

Other observations

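Some called genes had no counts at all in 1 of the 2 groups. There were 194 genes called higher with 0 counts in every parental library, 22 of them with at least 5 CPM on 4-OHT, and 16 called lower with 0 counts in every resistant library on 4-OHT, 6 of them with at least 5 CPM in parental cells. The filter on low counts used all 15 libraries, of which only 3 were parental, so genes at 0 in parental cells passed it more easily. The parental libraries also held fewer counts in total, so the 194 and the 16 cannot be compared. FIRRE, a long non-coding RNA gene on chromosome X that organises nuclear chromatin, was at least 505-fold higher, with 31.2, 40.2 and 32.9 CPM. LINC01639, a non-coding gene next to MPPED1 on chromosome 22, was at least 532-fold higher. VAT1L was at least 162-fold higher, CLEC7A, which encodes the receptor dectin-1, at least 142-fold, and GALNT14, which starts mucin-type glycosylation, at least 125-fold. Among those at 0 in the resistant cells, INSM1, a neuroendocrine transcription factor gene, was at least 251-fold lower, with 14.9, 15.9 and 11.1 CPM in the parental libraries. C9orf64 was at least 256-fold lower, EGR3, an immediate early and oestrogen-induced transcription factor gene, at least 121-fold, and ZNF484 at least 110-fold. These genes were chosen after their values were seen.

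Calls were spread unevenly over the chromosomes. On chromosome 9, where C9orf64 and ZNF484 lie, 33.7% of 621 tested genes were lower and 8.86% higher, with a median of -0.53, against 16.2% and 19.2% over all genes. On chromosome 22, where MPPED1 lies, 4.56% of 395 were lower and 23.8% higher, with a median of 0.51. Chromosome 3 had 26.3% lower, and chromosomes 12 and X each had 30.1% higher. Neighbouring genes on a chromosome are not independent, and copy number was not analysed here. Among windows of 20 neighbouring tested genes, the lowest lay on chromosome X from 149527591 to 152792268, with a median of -1.92; 11 of its 20 genes fell and 2 rose, and it held CSAG1, MAGEA3 and MAGEA6. The second lowest lay on chromosome 3 from 57293699 to 63863868, with a median of -1.51; 15 of its 20 genes fell and none rose. It held KCTD6, the pyruvate dehydrogenase subunit gene PDHB, which fell by 2.58, and FHIT (-0.26), which was not called. PXK, a kinase-like gene in it, stood at 115, 145 and 93.6 CPM in the parental libraries and 3.41, 1.87 and 3.72 CPM in the resistant libraries, a difference of -5.25 (SE 0.29, adjusted p = 7.18e-09). The highest lay on chromosome 12 from 54008985 to 55684611, with a median of 2.485; it held HOXC8, HOXC4 and the integrin gene ITGA5. The next highest was the protocadherin cluster on chromosome 5 from 140786136 to 141159061, with a median of 2.03 and 14 of 20 higher, where genes share exons and their counts are uncertain.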
